A study of Mus musculus with 4 samples.

Results

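The 150 most abundant gene identifiers of inguinal white adipose tissue from obese mice are described here. They were selected on the mean of their CPM (counts scaled to a library total of 1000000) over the entacapone and the vehicle input libraries, and they are 150 of 37315 identifiers in the count files, or 1.09% of the 13821 that were measured at 1 CPM or more. The entacapone input and the vehicle input are 1 library each, made from poly(A) RNA of inguinal fat of male C57BL/6 mice aged 23 weeks, all obese from a high-fat diet. Each treatment also has 1 immunoprecipitate of RNA carrying N6-methyladenosine (m6A), a methyl mark on adenosine inside messenger RNAs. Entacapone, a drug of Parkinson's disease, is also reported to inhibit FTO, an enzyme that removes m6A. The labels give neither its dose and duration nor the number of animals behind a library.

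In a specialised tissue a small set of transcripts usually supplies a large part of the messenger RNA. In fat this set is known to include transcripts for fatty acid binding, desaturation and storage, for secreted adipocyte proteins, and for mitochondrial and ribosomal proteins. None of these roles was assigned to a member here, which is a limit of the tables used and not of the identifiers. The count files list Ensembl identifiers alone, and the RefSeq table used pairs gene symbols with positions but holds no Ensembl identifier. For that reason the members stay unnamed, the tissue's cell type markers were not checked, and whether the members carry m6A peaks was not analysed here. The members are called by their abundance rank, from 1 for the largest mean CPM, and 3 of them also by identifier. Counts are not corrected for transcript length, so a rank is one of reads and not of RNA molecules.

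The 150 identifiers held a large part of all counts, which was 10933219 of 33164576 counts in the entacapone input and 8370990 of 24548212 in the vehicle input. That is a share of 33.0% in the entacapone input (exact binomial 95% interval 32.95 to 32.98) and of 34.1% in the vehicle input (34.08 to 34.12). Intervals here cover counting error only. Reads without molecular identifiers are not independent molecules, and with 1 library per treatment no difference has a replicate check.

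The share was uneven among the members. The identifier at rank 1 alone had 28508 CPM in the entacapone input and 33155 CPM in the vehicle input, 2.85% and 3.32% of the counts. The first 5 held 9.99% of entacapone and 9.81% of vehicle counts. The first 10 held 13.5% and 13.0%, and the first 50 held 23.9% and 24.1%. Over all 150, the median level was 1036 CPM in the entacapone input and 1184 CPM in the vehicle input, and the lowest were 470 and 560 CPM. The cumulative curve flattens along the ranks by construction, since identifiers are ordered by mean CPM. In this common order by mean CPM, 50% of the counts was reached at rank 630 in the entacapone input and at rank 565 in the vehicle input.

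**Figure D1:**
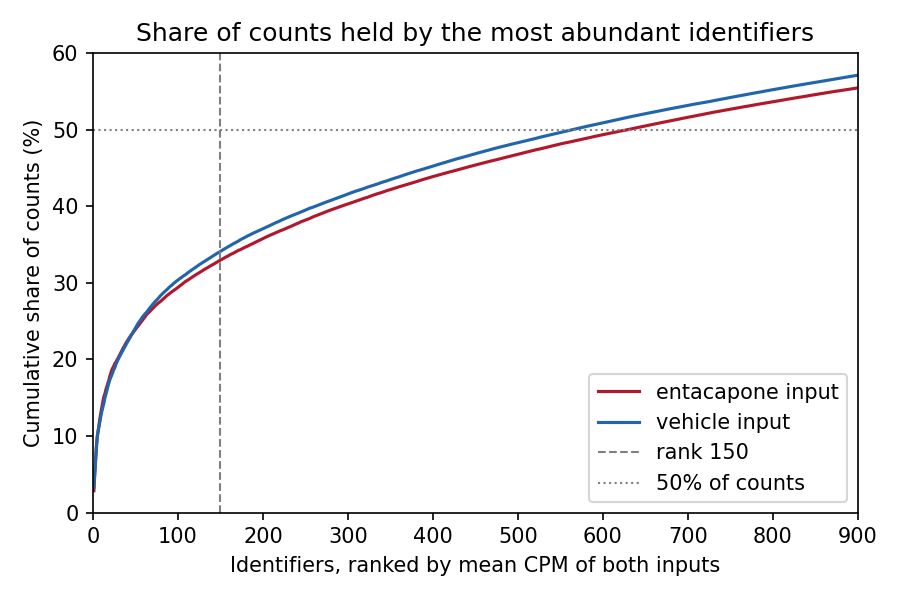
Cumulative share of counts (%) against abundance rank in the entacapone input (red) and the vehicle input (blue). The entacapone curve is the higher at ranks 4 and 5 and from rank 7 to rank 45, with 15.2% against 14.4% at rank 13. It is the lower at ranks 1 to 3, at rank 6 and from rank 46 on. The curves stand at 33.0% and 34.1% at rank 150 (dashed line), and the dotted line marks 50%.

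The set has no natural edge at rank 150. The members at ranks 148 to 150 had mean levels of 653, 652 and 649 CPM, and the 3 identifiers just outside had 648.4, 647.8 and 647.5 CPM. Ranking each input by itself gave 130 identifiers in both lists of 150. Of the members, 11 were among the first 150 of the entacapone input alone and 9 of the vehicle input alone. No member ranked below 237 in the entacapone input or 187 in the vehicle input.

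Members were not ranked on the ratio of the inputs, entacapone over vehicle, but the ratio uses the same counts. An identifier high in 1 input alone could become a member through that input, so ratio and choice are not independent. The ratio was taken after TMM scaling (trimmed mean of M-values, which sets the bulk of identifiers to no change) with a prior of 0.5 counts. Ratios of members were low on balance: 43 lay above no change and 107 below. Their median log2 ratio was -0.18 with quartiles of -0.41 and 0.02, against a median of -0.01 with quartiles of -0.20 and 0.20 for all 13821 identifiers. The size of this shift depends on the scaling: the members' median was -0.086 with total counts, where 59 ratios lay above no change and 91 below, and -0.11 with total counts without the members. With TMM scaling, about as many members were close to no change as not, with 74 of the 150 within 1.2-fold. Both quartiles of all identifiers also lay within 1.2-fold, so closeness to no change was not particular to the members.

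A member was called higher or lower where the whole exact 95% interval of its ratio lay beyond 1.5-fold. By that rule 1 member was called higher, or 0.667% of them, where 4.77% of all identifiers were, and 22 members were called lower, or 14.7%, where 3.23% of all identifiers were. Of the 22, 15 were in both lists of 150 and 7 in that of the vehicle input alone. Those 7 are members through the input where they are high, so the share called lower is not free of the choice. Most of the higher calls were of identifiers of low abundance, 582 of 659 being ranked after 4800, and in the bands between the members and those 1.0 to 2.17% were called higher. Beyond 2-fold, 0 members were higher and 7 were lower, beside 1.94% and 1.37% of all identifiers. Abundance narrows the intervals, to a median width of 0.046 on the log2 scale for the members. Hence the interval excluded no change for 144 members (96.0%), 38 above and 106 below, against 55.7% of all identifiers in either direction. The share was also 96.0% for the next 150 identifiers and 87.7% for the 300 after those. It was therefore not particular to the members. Counting error was thus small beside the members' ratios, and the spread between animals or preparations is not known.

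**Figure D2:**
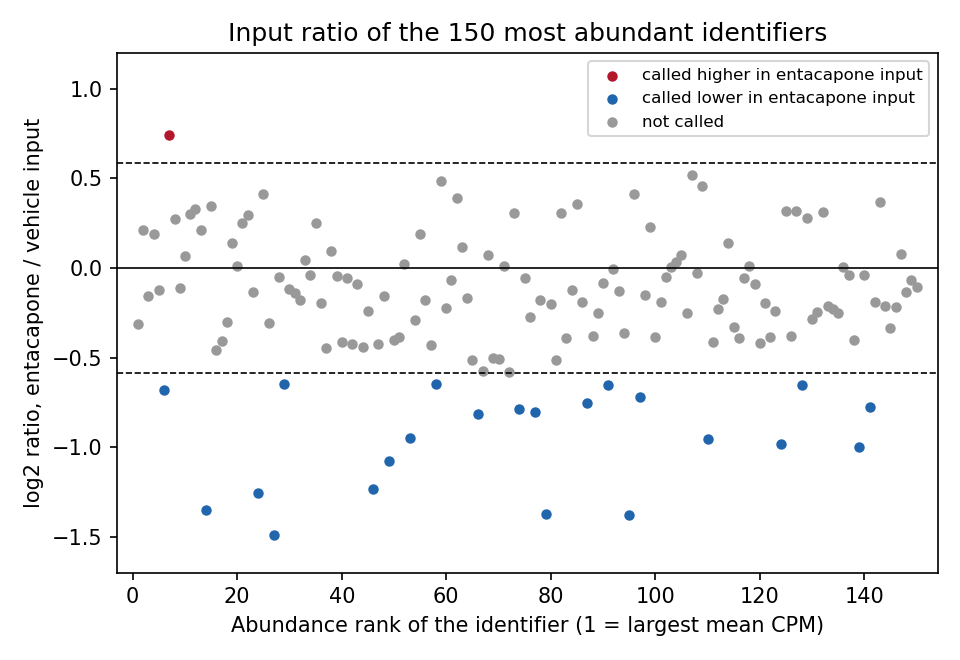
log2 ratio of the entacapone over the vehicle input for each of the 150 members, by abundance rank. Solid line, no change; dashed lines, 1.5-fold. A single member is called higher (red) and 22 are called lower (blue), from rank 6 to rank 141.

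The member called higher was ENSMUSG00000061780, at rank 7. It had 293564 counts or 8852 CPM in the entacapone input and 122014 counts or 4970 CPM in the vehicle input, a ratio of 1.67 (1.66 to 1.68). Its share of counts was 0.388 percentage points larger in the entacapone input. The next highest ratios stayed short of the rule. They were 1.43 (1.40 to 1.46) at rank 107, with 32929 counts in the entacapone and 15966 in the vehicle input, and 1.40 (1.38 to 1.42) at rank 59, with 58548 and 29055 counts.

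The lowest ratio was that of ENSMUSG00000059201, at rank 27. It had 43790 counts or 1320 CPM in the entacapone input and 85550 counts or 3485 CPM in the vehicle input, a ratio of 0.355 (0.351 to 0.359). ENSMUSG00000038375, at rank 95, followed with 16812 counts or 507 CPM in the entacapone input and 30361 counts or 1237 CPM in the vehicle input, a ratio of 0.384 (0.377 to 0.392). Both had fewer counts in the deeper library.

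The other members lower beyond 2-fold had ratios of 0.386 at rank 79, 0.393 at rank 14, 0.419 at rank 24, 0.426 at rank 46 and 0.475 at rank 49. Among them the identifier at rank 14 carried the most counts, with 88411 or 2666 CPM in the entacapone input and 156208 or 6363 CPM in the vehicle input. The most abundant member called lower was at rank 6, with 6035 CPM in the entacapone and 9076 CPM in the vehicle input and a ratio of 0.624 (0.620 to 0.627). The 22 together held 2.66% of entacapone counts and 4.86% of vehicle counts. Their median log2 ratio was -0.88 and the weakest was -0.65. Of these 22, 15 were in the list of 150 of both inputs and 7 in that of the vehicle input alone.

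The members did not move as a block along the ranks. Among the first 10, 5 ratios lay above no change and 5 below, with a median log2 ratio of -0.02. The medians were -0.15 for ranks 11 to 50, -0.24 for ranks 51 to 100 and -0.19 for ranks 101 to 150, and in those sections 12, 12 and 14 ratios lay above no change and 28, 38 and 36 below. In shares of counts, which are not TMM-scaled and weigh abundant members more, the first 10 took 13.5% of entacapone and 13.0% of vehicle counts. Ranks 11 to 50 took 10.4% and 11.1%, ranks 51 to 100 took 5.50% and 6.22% and ranks 101 to 150 took 3.56% and 3.73%.

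In shares of all counts, without TMM scaling, 59 members were larger in the entacapone input, by 2.93 percentage points in all, and 91 were smaller, by -4.07 points in all, which leaves -1.13 points for the set. The rank 1 identifier had the largest loss, -0.465 points, with a ratio of 0.806 that was not called. The largest gain was at rank 2, 0.423 points, with 22053 CPM in the entacapone and 17826 CPM in the vehicle input and a ratio of 1.16. Ranks 3 and 5 were close to even, with 17776 and 12894 CPM in the entacapone input, against 18590 and 13175 CPM in the vehicle input.

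Low ratios also occurred among the identifiers ranked just after the members. The median log2 ratio was -0.18 for the members, -0.11 for the next 150 identifiers and -0.10 for the 300 after those, and it was 0.03 for identifiers ranked after 4800, the least abundant band. Calls of lower made up 14.7% of the members, against 10.7% of the next 150 identifiers, 9.33% of the 300 after those, 4.83% of the following 600, 2.58% of the next 1200, 2.13% of the next 2400 and 2.99% of the least abundant band. Without regard to intervals, ratios lower by more than 1.5-fold made up 14.7% of the members, 12.0% of the next 150 identifiers, 3.38% of the 2400 that end at rank 4800 and 6.17% of the least abundant band. Ratios higher by more than 1.5-fold made up 0.667%, 2.67%, 1.88% and 12.6% of the same bands, so that neither share followed abundance in 1 direction throughout. Scaling shifts all bands alike, so the distance between their medians does not depend on it.

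The members' ratios were also more spread than those of identifiers of middle abundance, although they are the most precisely counted. The interquartile range of the log2 ratio was 0.43 for the members and 0.52 for the next 150 identifiers. It was 0.29 for the 1200 that end at rank 2400, the smallest of any band. The difference was less from the 300 identifiers that end at rank 600, with 0.39, and from all 13821 identifiers, with 0.40. In the least abundant band it was 0.46, and the median full width of the 95% interval was also 0.46. An interquartile range and a 95% interval width are unlike measures, so their equal size does not show how much spread is counting error. All of these values describe 1 pair of libraries, and no test of the difference between bands was made.

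**Figure D3:**
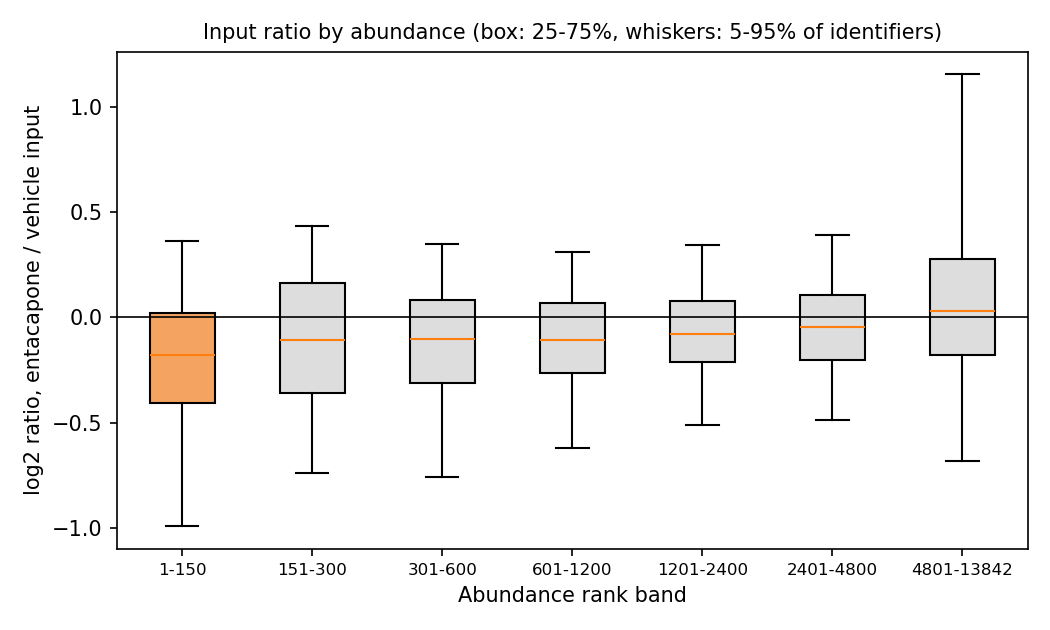
log2 ratio of the entacapone over the vehicle input by abundance rank band, the 150 members in orange. Lines in the boxes are medians, which run from -0.18 for the members to 0.03 in the least abundant band; boxes span the quartiles and whiskers the 5th to 95th percentiles of identifiers, not replicates.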

How the data were processed

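Per the labels' protocols, poly(A) RNA of inguinal fat was fragmented and TruSeq libraries of input RNA were sequenced on Illumina instruments. Per the submitters' processing notes, TopHat2 2.1.1, MACS2 and the mouse assembly mm10 were used; the counting tool and annotation are not stated there. Both input libraries were deposited as raw read counts per Ensembl identifier, not normalized by the authors, 33164576 in the entacapone and 24548212 in the vehicle input. Identifiers were ranked by mean CPM and the first 150 kept. Ratios used TMM factors over all identifiers (edgeR 4.0.16, R 4.3.3), a prior of 0.5 counts and exact conditional (Clopper-Pearson) 95% intervals (scipy 1.17.1), for identifiers with at least 1 CPM on average after TMM scaling. With 1 library per treatment no test across samples was made. The ratio step was tested on counts simulated with counting error alone and scaled by totals. TMM scaling and the spread between libraries were outside that test.

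Members and gene lists were chosen with earlier results of these data known. The planned role lists, cell type markers and peak comparisons were not run, because no table used pairs Ensembl identifiers with symbols or positions; the deposited peak lists are therefore not used. The named genes rule (largest mean CPM, most extreme ratios, all called members, ranks next to 150) was applied to ranks, with 3 identifiers printed. Alternatives were DESeq2 1.42.0 size factors, other scalings, intervals, folds, set sizes and rankings.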

Additional observations from a re-analysis of the deposited data

How the results depend on the processing

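With size factors of DESeq2, the upper quartile, a 99% interval, no filter on low counts, total counts, TMM factors after the filter and total counts without the 150 identifiers, 1 member was called higher, and 17 to 22 were called lower. The last 2 of these settings were chosen after seeing the data. Beyond 2-fold the calls were 0 higher and 7 lower. The members' median log2 ratio moved to -0.086 with total counts, -0.15 with the upper quartile and -0.11 with total counts without the members, and stayed below 0 in every scaling. The share of counts in the entacapone and vehicle inputs was 29.4% and 30.4% for 100 identifiers, 35.8% and 37.1% for 200, 33.1% and 33.7% for the 150 first in the entacapone input, and 32.6% and 34.2% for those first in the vehicle input. The order of the shares, lower in the entacapone input, held in these settings. No paired analysis was possible because each treatment has 1 input library, and no library could be left out. The alternatives for peaks (fold, number of top-ranked peaks, midpoint or overlap) were not run, since no table used ties peaks to identifiers. Counting depth limits little here, with at least 15585 counts in the entacapone and 13755 in the vehicle input for every member. The spread between animals could not be measured with 1 library per treatment.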
